A study of Oryza sativa Japonica Group with 59 samples.

Results

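A set of 145 rice genes was chosen by their level in egg cells of the *cmt3a* and the *cmt3b* mutant, out of 55986 features counted by RNA-seq. The 12730 genes with a mean of 5 or more TPM (transcript abundance, as reads per gene length scaled to the same total in every library) in *cmt3a* egg and in *cmt3b* egg were ranked. The rank was the lower of 2 ratios, (*cmt3a* egg + 1)/(WT egg + 1) and (*cmt3b* egg + 1)/(WT egg + 1), of mean TPM. The top 150 were taken, and 5 of them were left out because the rule listed 7 loci to be removed, of which the other 2 were not among the top 150. The egg values therefore chose the genes and are given as a description with no test, whereas zygote, meiocyte, microspore and sperm libraries had no part in the choice.

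RNA-seq was made from isolated cells of the rice variety ZH11. The groups with a mutation were *cmt3a* egg (2 libraries), *cmt3b* egg (2), *cmt3b* zygote (3), *cmt3b* meiocyte (3) and *cmt3b* sperm (3). The wild type (WT) groups were egg (3), zygote (3), meiocyte (3), unicellular microspore (3) and sperm (2 files). Zygotes were labelled as taken 6 to 8 hours after fertilization. The mutant plants had lost the Cas9 transgene and came from later, segregating generations after transformation. The WT plants were regenerated from tissue culture. Whether the groups were equally many generations from culture is not given in the sources used here. Independent mutant lines were described, but the line behind each RNA-seq library is not given in the sources used here, and *cmt3a* was sampled in the egg only.

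CMT3 proteins are chromomethylases, which maintain cytosine methylation in the CHG context (where H is A, C or T). Their chromodomain binds histone H3 methylated at lysine 9, and the methylated DNA in turn recruits the enzymes that methylate this histone, so that both marks sustain each other over transposable elements and related sequences. Egg cells store transcripts on which the zygote draws before its own genome becomes active.

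Both genes were mutated with CRISPR/Cas9, and the guide sequences are shown because they define the mutations that separate the mutant libraries from WT. Each is printed 5′ to 3′ as 20 nucleotides in lower case.
CMT3a sgRNA-1: acgctggtatgcaagcccaa
CMT3a sgRNA-2: acaacattatgagtgggaag
CMT3b sgRNA-1: aggggaccgagctcgacagt
CMT3b sgRNA-2: acataatcacccatactcgc

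*CMT3a* (LOC_Os10g01570) averaged 4.66 ± 0.285 TPM in *cmt3a* egg (SD, n = 2), against 12.8 ± 1.02 TPM in WT egg (SD, n = 3). *CMT3b* (LOC_Os03g12570) had 0 to 1 counts in the *cmt3b* egg libraries, against 89 to 151 counts in WT egg. It averaged 0.899 ± 0.115 TPM in *cmt3b* zygote and 2.04 ± 0.202 TPM in WT zygote (SD, n = 3 each). *CMT3b* was also low in *cmt3a* egg, at 8 and 19 counts in the 2 libraries, whereas *CMT3a* averaged 18.8 ± 3.62 TPM in *cmt3b* egg (SD, n = 2). The targeted gene was lower than in WT in every mutant group.

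Libraries held 9240046 to 25610860 counts on genes (median 16151914). The spread between the 2 WT sperm files was under sampling noise (chi-square per degree of freedom 0.240 over 19391 genes, against 1.37 to 6.73 in the 23 other replicate pairs), and were counted as 1 sample. Of the other cells that an egg library could hold, 515 genes enriched in WT meiocyte, none of the 145 among them, summed to 282 to 288 TPM in *cmt3a* egg and 437 to 448 TPM in *cmt3b* egg, against 315 to 323 TPM in WT egg. In WT meiocyte itself they summed to 84157 TPM or more. A like set of 479 genes enriched in WT microspore summed to 1589 to 1702 TPM in *cmt3a* egg and 1298 to 1304 TPM in *cmt3b* egg, against 1035 to 1060 TPM in WT egg and at least 203126 TPM in WT microspore. The 5 anther tapetum loci were at a summed 5.67 to 6.4 TPM in *cmt3a* egg, 5.57 to 6.5 TPM in *cmt3b* egg and 5.48 to 6.51 TPM in WT egg. Loci that mark the cells around the egg were not analysed here, and their part in the egg values was not tested. Only 2 genes were enriched in WT egg over the other WT cells, and they summed to 8.91 to 9.14 TPM in *cmt3a* egg and 4.31 to 6.21 TPM in *cmt3b* egg, against 28.1 to 32.9 TPM in WT egg. Fewer cells of a type and less RNA per cell cannot be told apart in such libraries.

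The median of the 145 genes' mean levels was 34.1 TPM in *cmt3a* egg and 57.4 TPM in *cmt3b* egg, against 1.23 TPM in WT egg. Together they made up 11837 and 12777 TPM in the *cmt3a* egg libraries and 25071 and 25425 TPM in the *cmt3b* egg libraries, against 769 to 817 TPM in WT egg. The ratio of mean TPM + 1 was between 5.38 and 123 in *cmt3a* egg (median 12.2) and between 5.59 and 445 in *cmt3b* egg (median 21.4). Over all 12730 genes with enough TPM for the rule, these medians were 0.82 and 0.765. In WT egg 64 of the 145 were under 1 TPM, 31 had at most 3 counts in every library, and 30 had 5 TPM or more. Every mutant library lay above every WT egg library for all 145 genes in both mutants, where 28.6% (*cmt3a*) and 23.6% (*cmt3b*) of the 12730 genes did. These separations follow from the choice and carry no weight of their own. Scaling the libraries by TMM in place of TPM put the median log2 ratio of the 12730 genes at 0.08 in *cmt3a* egg and -0.01 in *cmt3b* egg, against -0.29 and -0.39 by TPM, and with it the lowest ratio of the 145 was 6.05.

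**Figure D1:**
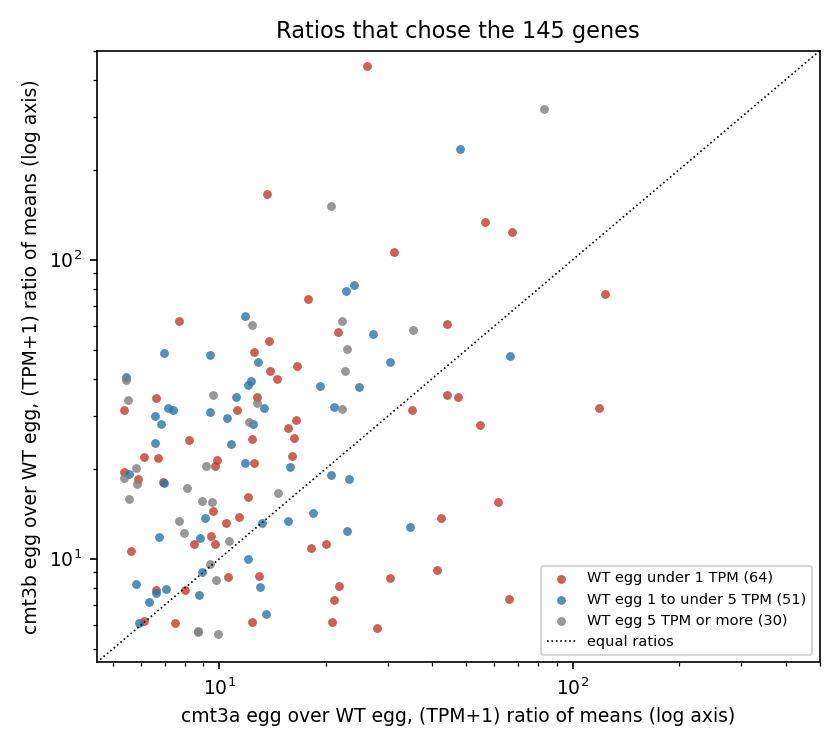
Ratio of mean TPM + 1 in *cmt3a* egg over WT egg (x axis, log) and in *cmt3b* egg over WT egg (y axis, log) for the 145 genes, coloured by their mean TPM in WT egg. The smallest ratio on either axis is 5.38, as the ranking requires, and 107 of the 145 points lie above the dotted line of equal ratios.

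Replicate libraries of a mutant gave nearly the same values. The higher of the 2 libraries was a median of 1.09 times the lower in *cmt3a* egg and 1.06 times in *cmt3b* egg. The libraries of *cmt3a* egg were over 2-fold apart for 1 gene only, LOC_Os08g10304, with 3.42 and 7.14 TPM. In *cmt3b* egg no gene was over 2-fold apart, and LOC_Os09g10660 had the largest gap, at 1.87 times.

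The gene that ranked first was LOC_Os08g10500. Its levels were 493 and 583 TPM in *cmt3a* egg and 2195 and 1960 TPM in *cmt3b* egg, against 4.92, 4.51 and 7.08 TPM in WT egg. It is thus present at a low level in WT egg, and the ratios were 82.9 and 320 in the 2 mutants. LOC_Os10g11100, which ranked next, had 126 and 127 TPM in *cmt3a* egg and 80.9 and 76.4 TPM in *cmt3b* egg. In WT egg it had at most 1 count in a library. LOC_Os01g72530 had 84.2 and 88 TPM in *cmt3a* egg and 151 and 167 TPM in *cmt3b* egg, against 0.178 to 0.51 TPM in WT egg. All mutant libraries of these genes lay far above all WT egg libraries.

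Other genes at the head of the ranking differed in which mutant was higher. LOC_Os01g09220 had 99.2 and 113 TPM in *cmt3a* egg and 245 and 260 TPM in *cmt3b* egg, against 0.799 to 1.02 TPM in WT egg. LOC_Os05g31620 had 285 and 306 TPM in *cmt3a* egg and 474 and 501 TPM in *cmt3b* egg, against 6.36 to 7.99 TPM in WT egg. Both were higher in *cmt3b* egg. LOC_Os09g27330 was the other way round, with 305 and 320 TPM in *cmt3a* egg and 222 and 225 TPM in *cmt3b* egg, against 3.19 to 4.66 TPM in WT egg. LOC_Os12g32610 was alike in the mutants, with 38.9 and 43.4 TPM in *cmt3a* egg and 35.9 and 37.5 TPM in *cmt3b* egg, against 0 to 0.471 TPM in WT egg.

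By mean TPM, 107 of the 145 genes were higher in *cmt3b* egg than in *cmt3a* egg (73.8%, against 44.8% of the 12730) and 38 were higher in *cmt3a* egg. Every *cmt3b* egg library lay above every *cmt3a* egg library for 100 genes (69%), against 39.5% of the 12730, and below for 34 (23.4%), against 49.4%. The extremes were wide. LOC_Os03g55770 had 29.6 and 28.8 TPM in *cmt3a* egg, against 494 and 530 TPM in *cmt3b* egg, a ratio of 0.0589 of mean TPM + 1. LOC_Os04g57200 (0.0824), LOC_Os05g03590 (0.124) and LOC_Os02g53600 (0.135) had the next lowest ratios of *cmt3a* egg over *cmt3b* egg. In the other direction, LOC_Os05g36240 had 70.3 and 63.2 TPM in *cmt3a* egg, against 5.96 and 7.06 TPM in *cmt3b* egg, a ratio of 9.02. The next were LOC_Os11g26780 (4.77), LOC_Os07g05850 (4.5) and LOC_Os11g26790 (3.95). As the egg libraries chose the genes, the difference between the mutants was not tested.

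By level, LOC_Os04g52090 was highest in *cmt3a* egg, at 728 and 851 TPM, and had 856 and 852 TPM in *cmt3b* egg, against 70.8 to 78.5 TPM in WT egg. It was also the highest of the genes in WT egg. LOC_Os05g22840, listed as an expressed protein, had 674 and 712 TPM in *cmt3a* egg and 612 and 593 TPM in *cmt3b* egg, against 68.3 to 71.9 TPM in WT egg. LOC_Os06g04230 had 550 and 572 TPM in *cmt3a* egg and 1196 and 1264 TPM in *cmt3b* egg, against 22.9 to 24.2 TPM in WT egg. In *cmt3b* egg, LOC_Os03g55776 (1975 and 1989 TPM), LOC_Os06g46950 (1382 and 1437 TPM) and LOC_Os01g04330 (1272 and 1302 TPM) followed LOC_Os08g10500. In *cmt3a* egg the same 3 genes were between 246 and 514 TPM, and in WT egg they were between 11.1 and 24 TPM.

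At the end of the ranking stood LOC_Os01g55510 and LOC_Os02g56900, each with a lower ratio of 5.38. The first genes outside the limit were LOC_Os05g02620, at 5.3, and LOC_Os02g41840, at 5.28. The limit therefore falls in a continuous range and marks no step in the data.

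Most of the genes were also expressed in WT male cells, as were most of the 12730. A mean of 5 TPM or more was found in at least 1 of WT meiocyte, microspore and sperm for 115 of the 145 genes (79.3%), against 93.8% of the 12730, and in all 3 for 71. In WT meiocyte 104 genes reached it (71.7%, against 87.1% of the 12730) and in WT microspore 99 (68.3%, against 79.3%). In WT sperm it was 80 (55.2%, against 53%) and in WT zygote 67 (46.2%, against 93.8%). The highest of the 4 WT groups other than egg was microspore for 68 of the genes (46.9%), against 25.6% of the 12730, and meiocyte for 37 (25.5%), against 13.1%. It was sperm for 20 (13.8%), against 21.2%, and zygote for 20 (13.8%), against 40.1%. These shares are a description with no test. The genes were chosen as low in WT egg, and the library of another group nearest in profile to each WT egg library was from WT zygote. The choice may therefore bear on the low zygote share and raise the male shares, and its part was not tested.

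In sum the genes made up 32116 to 32369 TPM in WT microspore and 13117 to 14031 TPM in WT meiocyte, whereas WT sperm had 4373 to 4410 TPM and WT zygote 2137 to 2198 TPM. A single gene took much of the male sums. LOC_Os09g35700, named here for its level, had 13015 to 13616 TPM in WT microspore and 3197 to 3604 TPM in WT meiocyte, and was at 0 in both WT sperm files. In the eggs it had 26.1 and 29.7 TPM in *cmt3a*, 17.1 and 16.6 TPM in *cmt3b* and 1.16 to 1.33 TPM in WT. LOC_Os08g10500, in contrast, reached 1960 and 2195 TPM in *cmt3b* egg and had 2934 to 3113 TPM in WT microspore. LOC_Os09g35700 and LOC_Os08g10500 thus differed in the proportion of their mutant egg level to their microspore level. This proportion was not computed for the other genes.

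**Figure D2:**
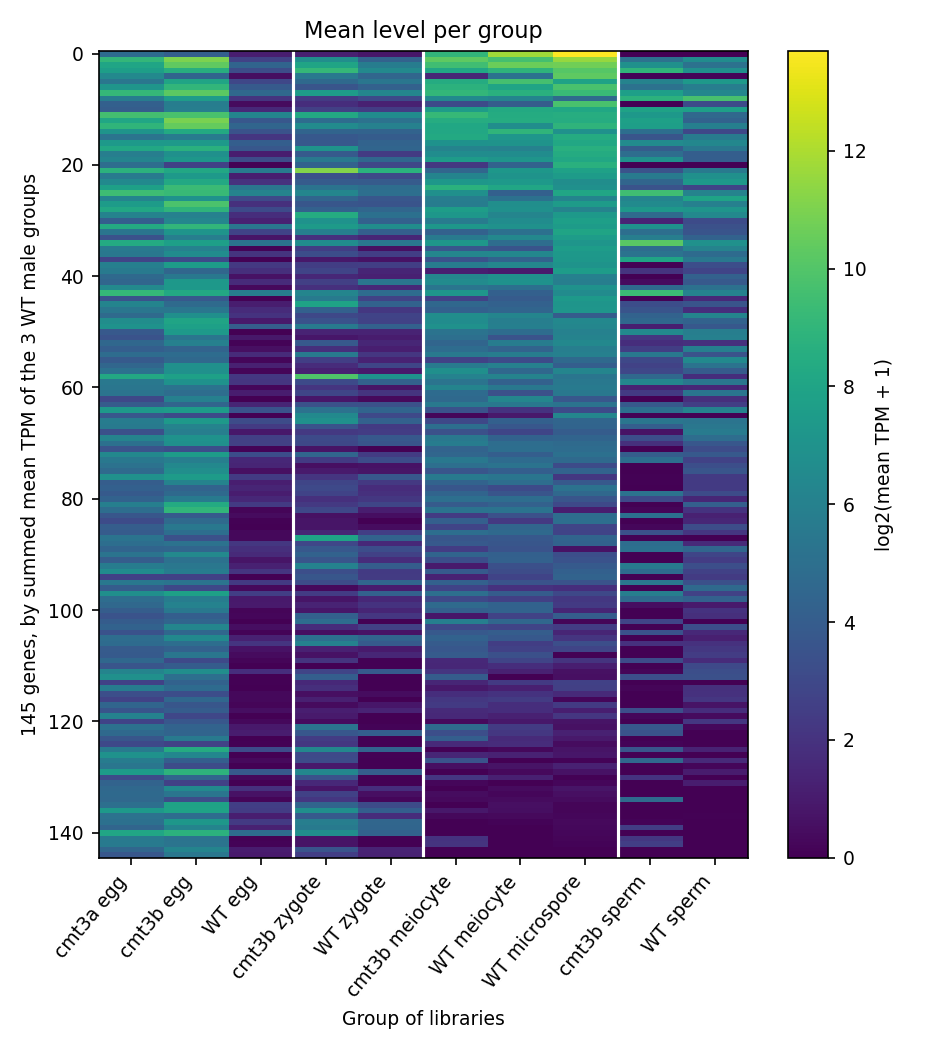
Mean level of each of the 145 genes (rows, sorted by their summed mean TPM in the 3 WT male groups) in the 10 groups (columns), as log2(mean TPM + 1) by colour. The mutant egg columns are bright along the whole height and the WT egg column is dark, while the male columns fade from top to bottom.

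A small group of 13 genes was under 1 TPM in every WT male group. They were picked out after their values were seen. LOC_Os11g26725, listed as an expressed protein and as a zygotic gene, had 34.3 and 29.6 TPM in *cmt3a* egg and 145 and 153 TPM in *cmt3b* egg, against 3.48 to 4.54 TPM in WT egg. It was at 51.8 to 62.4 TPM in *cmt3b* zygote and 19.6 to 25.2 TPM in WT zygote, and was between 0 and 0.836 TPM in the male libraries. LOC_Os02g53600 shared this profile, with 237 and 240 TPM in *cmt3b* egg and 16.7 to 22.9 TPM in *cmt3b* zygote, against 7.59 to 8.24 TPM in WT zygote. LOC_Os05g30470 reached 455 and 430 TPM in *cmt3b* egg and 26.3 to 28.4 TPM in WT egg, and was at 0 in every meiocyte and sperm library. All 3 genes had a level in WT egg and WT zygote, and the mutant eggs lay above it.

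Of these 13 genes, 4 were under 1 TPM in all 5 WT groups, namely LOC_Os01g63393, LOC_Os01g64949, LOC_Os05g20954 and LOC_Os10g41838. LOC_Os01g63393 had 44.4 and 49.8 TPM in *cmt3a* egg and 38.3 and 36.7 TPM in *cmt3b* egg, and LOC_Os01g64949 had 48.1 and 49.6 TPM and 35.7 and 35.4 TPM in the same groups. In WT egg each had at most 1 count. Over the 27 libraries their log2(TPM + 1) values had a Pearson correlation of 0.998, the highest of any pair among the genes. Whether the 2 loci are alike in sequence was not tested, and reads of near-identical loci cannot be told apart in these counts.

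After fertilization, most of the genes that changed in *cmt3b* zygote were higher than in WT zygote. Of the 122 genes that passed the filter on low counts, 67 were higher (54.9%) and 13 lower (10.7%) by over 2-fold with an adjusted p below 0.01 (edgeR's quasi-likelihood test, Benjamini-Hochberg adjustment across all genes). Among all 20638 genes tested, 8.56% were higher and 8.1% lower. The median of the log2 fold changes was 1.24 for the genes and -0.0019 for all genes tested, and it was the same with genes of at most 3 counts in every WT library set to their bound. As 11 of the 67 had at most 3 counts in every WT zygote library, they passed the filter through the mutant alone and had to differ. Without any filter, 73 of all 145 were higher (50.3%) and 14 were lower (9.66%), against 6.6% and 6.03% of 34243 features with a count. Every *cmt3b* zygote library lay above every WT zygote library for 93 of the 145 (64.1%), against 25.7% of these features, and below for 29 (20%), against 25.8%.

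Several of the genes had no read in WT zygote. LOC_Os02g53240, listed as an expressed protein, had 21.6, 13 and 14.4 TPM in *cmt3b* zygote, against 0 in each WT zygote library. With 3 counts in the smallest WT library as the level of WT, it was at least 24.2-fold higher. LOC_Os09g38104, a hypothetical protein, had 22.3, 34.4 and 28.6 TPM in *cmt3b* zygote, against 0 in each WT zygote library, at least 23.1-fold higher. LOC_Os04g32080 and LOC_Os06g21369 were likewise at 0 in WT zygote, and were at least 22.1-fold and 20.9-fold higher in *cmt3b* zygote. The groups did not overlap for any of these genes.

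RPP14.1 (LOC_Os05g18780), of the rpp14 family, had 40, 36 and 36.5 TPM in *cmt3b* zygote, against 0, 0.338 and 0 TPM in WT zygote. It was also in the eggs at 34.5 and 31.9 TPM in *cmt3a* and 20.2 and 18.8 TPM in *cmt3b*, against 0.442 to 1.37 TPM in WT. All mutant libraries of RPP14.1 lay above all WT ones in both cell types.

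Among genes with a level in WT zygote, LOC_Os01g50910 had 2349, 2094 and 2285 TPM in *cmt3b* zygote, against 431, 432 and 417 TPM in WT zygote (log2 fold change 2.39 ± 0.05 SE, edgeR adjusted p = 2.31e-30). This zygote level was several times its level in *cmt3a* egg (421 and 474 TPM) and in *cmt3b* egg (298 and 293 TPM). LOC_Os09g27330 had 1022, 932 and 918 TPM in *cmt3b* zygote, against 126, 132 and 123 TPM in WT zygote (log2 fold change 2.91 ± 0.05 SE, edgeR adjusted p = 9.24e-34). LOC_Os05g28210 had 93.2, 92.6 and 88.2 TPM in *cmt3b* zygote, against 6.06 to 7.95 TPM in WT zygote (log2 fold change 3.63 ± 0.08 SE, edgeR adjusted p = 4.71e-30). In the mutant eggs LOC_Os05g28210 was between 6.28 and 12 TPM, and in WT egg it was at 0. It was among 18 genes (12.4%) whose mean TPM was higher in *cmt3b* zygote than in *cmt3b* egg, against 53.3% of the 12730.

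For the larger number the zygote held less than the mutant egg, to which the choice of genes high in the mutant eggs contributes. The mean TPM in *cmt3b* zygote was over 10 times below that in *cmt3b* egg for 71 of the 145 genes (49%), against 1.01% of the 12730, and below both mutant eggs for 120 (82.8%), against 33.4%. In WT zygote 139 were below both mutant eggs (95.9%), against 40.4%. These counts use the egg values of the rule and carry no weight of their own. LOC_Os08g10500 had 115, 119 and 95.1 TPM in *cmt3b* zygote, against 20.6, 18 and 17.9 TPM in WT zygote (log2 fold change 2.52 ± 0.11 SE, edgeR adjusted p = 3.18e-21). LOC_Os03g55776, at 1975 and 1989 TPM in *cmt3b* egg, had 27.8, 28.7 and 27.8 TPM in *cmt3b* zygote, against 32.8, 38.5 and 34.3 TPM in WT zygote, and did not pass the fold limit. LOC_Os03g60570, at 877 and 898 TPM in *cmt3b* egg, had 10.9 to 12.5 TPM in *cmt3b* zygote and 10 to 11.8 TPM in WT zygote, with overlapping groups (edgeR adjusted p = 0.377). In sum the genes made up 7958 to 8427 TPM in *cmt3b* zygote, against 2137 to 2198 TPM in WT zygote.

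The 13 genes that were lower included LOC_Os06g48160, with 5.25, 4.83 and 5.08 TPM in *cmt3b* zygote, against 43.8, 37.8 and 41.9 TPM in WT zygote (log2 fold change -3.02 ± 0.09 SE, edgeR adjusted p = 3.99e-27). This gene was at 154 and 158 TPM in *cmt3b* egg, against 1.87 to 2.46 TPM in WT egg, the opposite direction to that in zygote. The direction in egg was fixed by the choice of the genes, so that each gene lower in *cmt3b* zygote has this pattern. LOC_Os09g35010 had 3.58, 6.45 and 3.28 TPM in *cmt3b* zygote, against 19.3, 17.2 and 18.5 TPM in WT zygote (log2 fold change -2.15 ± 0.15 SE). Its neighbour LOC_Os09g35020 had 2.91 to 3.6 TPM in *cmt3b* zygote, against 11.6 to 12.8 TPM in WT zygote (log2 fold change -1.89 ± 0.15 SE). LOC_Os01g64570 was low throughout, with 0.209 to 0.413 TPM in *cmt3b* zygote, against 0.82 to 1.29 TPM in WT zygote (log2 fold change -1.82 ± 0.43 SE, edgeR adjusted p = 0.000319), and with *cmt3b* zygote 1 as the lone mutant library it did not pass the test.

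The 2 leaf marker loci summed to 0.397, 74 and 34.5 TPM in *cmt3b* zygote 1, 2 and 3, against 5.7 to 7.86 TPM in WT zygote. They also summed to 151 to 166 TPM in WT microspore and 10.2 to 11.4 TPM in WT meiocyte, so they are not particular to leaf in these libraries. Without *cmt3b* zygote 2, 67 genes were higher and 14 lower, and without *cmt3b* zygote 3 the counts were 69 and 14. With *cmt3b* zygote 1 alone against WT zygote, a fit added after the data were seen in which the lone library is assumed to vary as the WT ones do, 65 of 127 genes were higher and 13 lower. Their median log2 fold change was 1.09 in that fit, against 1.24 with all 3 libraries.

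**Figure D3:**
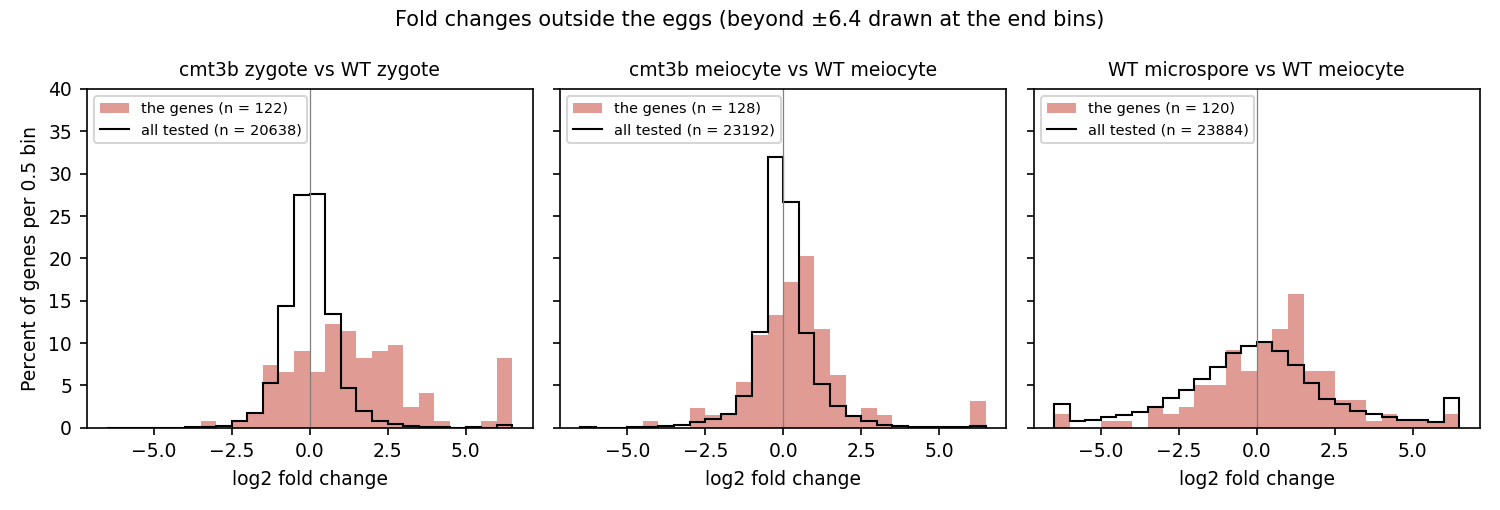
Distribution of log2 fold changes in *cmt3b* zygote against WT zygote, *cmt3b* meiocyte against WT meiocyte, and WT microspore against WT meiocyte. The filled steps are the genes tested and the black line is all genes tested, each as a percent per bin. The filled steps are shifted to the right most in the zygote panel (medians 1.24 and -0.0019).

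In meiocytes the difference was smaller and more mixed. Of 128 genes that passed the filter, 34 were higher in *cmt3b* meiocyte (26.6%) and 15 were lower (11.7%), against 10.7% and 7.91% of all genes tested. The median of the log2 fold changes was 0.43 for the genes and -0.02 for all genes tested. Without the filter 34 of 141 genes with a count were higher (24.1%) and 16 were lower (11.3%), against 7.33% and 5.6% of 39532 features. Every *cmt3b* meiocyte library lay above every WT meiocyte library for 75 of the 141 (53.2%), against 23.9% of these features, and below for 39 (27.7%), against 24%. In sum the genes made up 10415 to 11191 TPM in *cmt3b* meiocyte, against 13117 to 14031 TPM in WT meiocyte, and without LOC_Os09g35700 the sums were 9933 to 10646 TPM in *cmt3b* meiocyte and 9920 to 10427 TPM in WT meiocyte. The 5 meiocyte marker loci summed to 166 to 175 TPM in *cmt3b* meiocyte, against 246 to 251 TPM in WT meiocyte, and the part of this difference in the result was not tested.

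Among the 34 higher genes, 4 had at most 3 counts in every WT meiocyte library, so that they passed the filter through the mutant alone and had to differ. LOC_Os04g32080 had 9.84, 9.69 and 11.7 TPM in *cmt3b* meiocyte, against 0 in each WT meiocyte library, and was at least 30.4-fold higher. LOC_Os02g53240 had 16.1, 15.1 and 13.2 TPM in *cmt3b* meiocyte, against 0 in each WT meiocyte library, and was at least 22.9-fold higher. The alike loci LOC_Os01g64949 and LOC_Os01g63393 were at 2.3 to 3.9 TPM in *cmt3b* meiocyte and at 0 in WT meiocyte, and were at least 6.17-fold and 3.89-fold higher. All 4 loci had no read in WT meiocyte.

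Some annotated genes also rose in meiocytes. pPLAIIIbeta and LOC_Os08g27550, like LOC_Os02g53240 and LOC_Os09g38104, are on the study's list of genes raised in *cmt3b* meiocyte. That list used the same libraries, so the rise of these listed genes in meiocyte carries no weight of its own. pPLAIIIbeta (LOC_Os03g43880), a putative patatin-like phospholipase of the kind that releases fatty acids from membrane lipids, had 17, 15 and 17.5 TPM in *cmt3b* meiocyte, against 3.45, 4.38 and 3.5 TPM in WT meiocyte (log2 fold change 2.34 ± 0.11 SE, edgeR adjusted p = 3.37e-19). It had 6.72 and 8.52 TPM in *cmt3a* egg and 23.5 and 27.2 TPM in *cmt3b* egg, against 0 to 0.106 TPM in WT egg. RPP14.1 had 25.1, 26.1 and 25.5 TPM in *cmt3b* meiocyte, against 3.98, 3.99 and 4.8 TPM in WT meiocyte (log2 fold change 2.77 ± 0.12 SE). LOC_Os08g27550, a hypothetical protein, had 14.6 to 17.5 TPM in *cmt3b* meiocyte, against 1.43 to 3.29 TPM in WT meiocyte (log2 fold change 3.04 ± 0.3 SE).

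The largest fall was that of LOC_Os11g26790, with 1.49, 1.9 and 1.99 TPM in *cmt3b* meiocyte, against 36.3, 34.7 and 33.5 TPM in WT meiocyte (log2 fold change -4.06 ± 0.11 SE, edgeR adjusted p = 1.21e-25). LOC_Os09g22160 had 0.515 to 1.29 TPM in *cmt3b* meiocyte, against 8.37 to 9.7 TPM in WT meiocyte (log2 fold change -2.88 ± 0.34 SE). LOC_Os05g39250 had 0.476 to 1.14 TPM in *cmt3b* meiocyte, against 5.42 to 5.7 TPM in WT meiocyte (log2 fold change -2.66 ± 0.27 SE), and LOC_Os01g50910 had 20 to 22.5 TPM, against 145 to 161 TPM in WT meiocyte (log2 fold change -2.62 ± 0.06 SE). All 4 were higher in *cmt3b* zygote than in WT zygote.

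The zygote and meiocyte comparisons share no library. Among the 109 genes tested in both, 13 were higher in *cmt3b* zygote and in *cmt3b* meiocyte (11.9%), against 1.93% of the 19486 genes tested in both. They are 24.1% of the 54 of these 109 that were higher in zygote and 44.8% of the 29 that were higher in meiocyte. Of the 13, LOC_Os02g53240, LOC_Os09g38104, LOC_Os04g32080, LOC_Os06g21369 and RPP14.1 had at most 3 counts in every WT zygote library. These passed the zygote filter through the mutant alone and had to differ there, and LOC_Os02g53240 and LOC_Os04g32080 did so in meiocyte as well. By these limits 0 of the 109 were lower in both by edgeR, against 0.58% of the 19486, and 0 by DESeq2, and 3 were lower in both at an unadjusted edgeR p below 0.05. Another 10 were higher in zygote and lower in meiocyte (9.17%, against 0.703%), 5 were lower in zygote and higher in meiocyte (4.59%, against 0.806%), and 29 were called in neither (26.6%, against 75.7%). The difference between the 2 effects was tested as an interaction in one fit over the 12 libraries. Of 141 genes tested, the *cmt3b* effect was higher in zygote for 59 (41.8%) and higher in meiocyte for 31 (22%), against 10.6% and 12.8% of all genes tested. The 59 include genes with at most 3 counts in every WT zygote library, whose zygote effect is a bound and no fold. They also include genes with at most 3 counts in every meiocyte library of both genotypes. For those the difference rests on the zygote libraries alone. The median of this log2 difference was 0.74 for the genes and -0.03 for all genes tested.

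**Figure D4:**
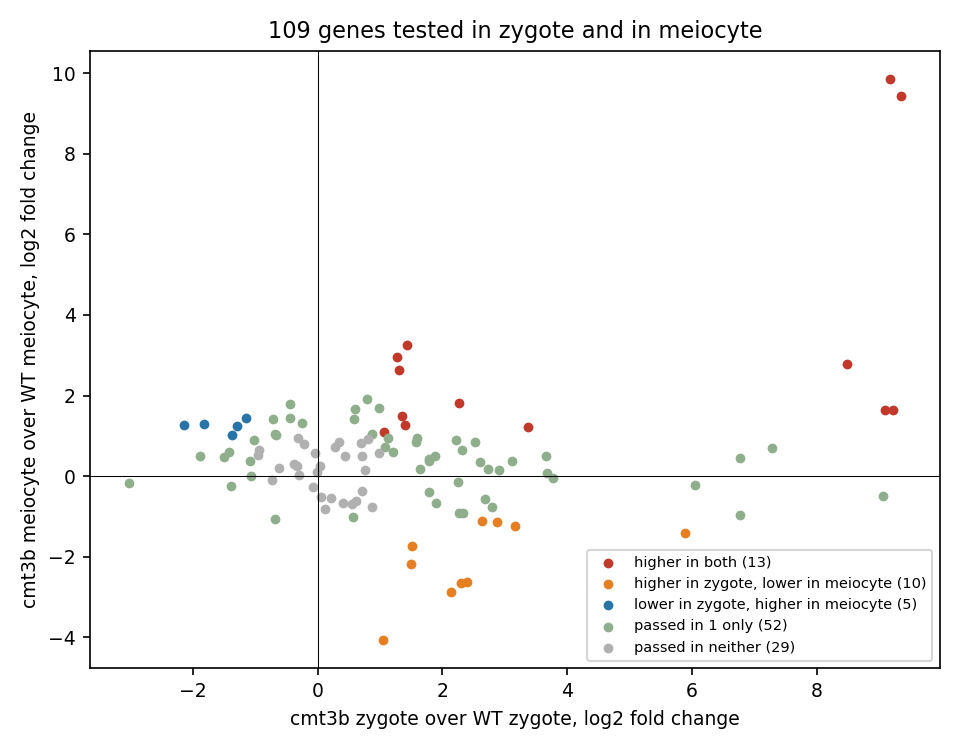
Log2 fold change of *cmt3b* over WT in zygote (x axis) and in meiocyte (y axis) for the 109 genes tested in both, coloured by the edgeR call. The 13 genes higher in both are at the upper right, and the 10 genes higher in zygote and lower in meiocyte are at the lower right.

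The 13 genes higher in both were LOC_Os02g53240, LOC_Os03g18490, LOC_Os09g38104, LOC_Os04g32080, RPP14.1, LOC_Os03g52680, LOC_Os05g22840, LOC_Os04g33820, LOC_Os06g21369, LOC_Os02g50600, LOC_Os05g41490, LOC_Os12g23630 and LOC_Os12g33928. They were singled out by these calls. In sperm 8 of them were over 2-fold higher in *cmt3b* and 3 over 2-fold lower, with the other 2 between these limits. Of all genes compared in sperm, 35.2% were higher and 32.9% lower. RPP14.1 and LOC_Os05g22840 are on the study's list for *cmt3b* sperm, and LOC_Os09g38104 and LOC_Os06g21369 had no read in WT sperm and had to differ. Among the 13, LOC_Os05g22840, LOC_Os12g33928 and LOC_Os12g23630, the last picked after its values were seen, formed a trio with a level in every group. In *cmt3b* meiocyte they had 116 to 118 TPM, 139 to 153 TPM and 145 to 157 TPM, against 13.6 to 19.4 TPM, 15.2 to 19.9 TPM and 26.5 to 30.3 TPM in WT meiocyte. In *cmt3b* sperm they had 711 to 727 TPM, 602 to 723 TPM and 966 to 1398 TPM, against 67.1 to 70.2 TPM, 62.4 to 67.9 TPM and 106 to 133 TPM in the WT sperm files. In *cmt3b* zygote their log2 fold changes were smaller, at 1.28 ± 0.07, 1.43 ± 0.07 and 1.31 ± 0.13 SE. All 3 genes had a higher mean in each mutant group than in the matching WT group, in eggs by the choice of the set and in sperm without a test.

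Sperm libraries were compared by ratios with no test, since WT sperm was 1 sample. Of 119 genes with enough counts, 42 were over 2-fold higher in every *cmt3b* sperm library (35.3%) and 53 were over 2-fold lower (44.5%), against 35.2% and 32.9% of all genes compared. The lower genes include some with no read in any *cmt3b* sperm library, and the higher genes some with no read in WT sperm. Such genes passed the filter through the other group alone and had to differ. The median log2 ratio was -0.38 for the genes and 0.05 for all genes. In sum they made up 6585 to 7738 TPM in *cmt3b* sperm, against 4373 and 4410 TPM in the WT sperm files, so that the sum and the median differ in direction. A share near the background is no result about the genes, and the count higher was near it. The 1564 genes outside the set enriched in WT sperm summed to 158475 to 159545 TPM in *cmt3b* sperm. In the WT sperm files they summed to 334686 to 336256 TPM. The 479 genes enriched in WT microspore summed to 6795 to 8045 TPM in *cmt3b* sperm, against 732 to 739 TPM in WT sperm. The 5 tapetum loci were lower in *cmt3b* sperm, at 27.5 to 30.1 TPM, against 66.8 to 67.6 TPM in WT sperm. The part of these differences in the sperm ratios was not tested.

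LOC_Os10g41838 had 23.6, 28 and 26.4 TPM in *cmt3b* sperm and was at 0 in the WT sperm files, and RPP14.1 had 12.5, 14.1 and 11.9 TPM in *cmt3b* sperm, against 0.212 and 0.224 TPM in WT sperm. LOC_Os09g12390 had 9.26 to 11.2 TPM in *cmt3b* sperm and was at 0 in WT sperm. LOC_Os03g33090 had 31.3 to 33.9 TPM in *cmt3b* sperm, against 1.37 and 1.44 TPM in WT sperm. In the other direction, LOC_Os01g64570, LOC_Os05g45440 and LOC_Os07g47790 were at 0 in all 3 *cmt3b* sperm libraries, against 24.2 and 24.5 TPM, 16.5 and 16.4 TPM, and 11.1 and 11.2 TPM in the WT sperm files. LOC_Os01g55510 had 0.32 to 1.05 TPM in *cmt3b* sperm, against 50.3 and 50.6 TPM in WT sperm. These genes were higher in *cmt3b* egg than in WT egg by the choice of the set. Genes at 0 in either group passed the filter through the other group alone and had to differ. RPP14.1 and LOC_Os05g22840 are on the study's list of genes raised in *cmt3b* sperm, which used the same libraries.

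**Figure D5:**
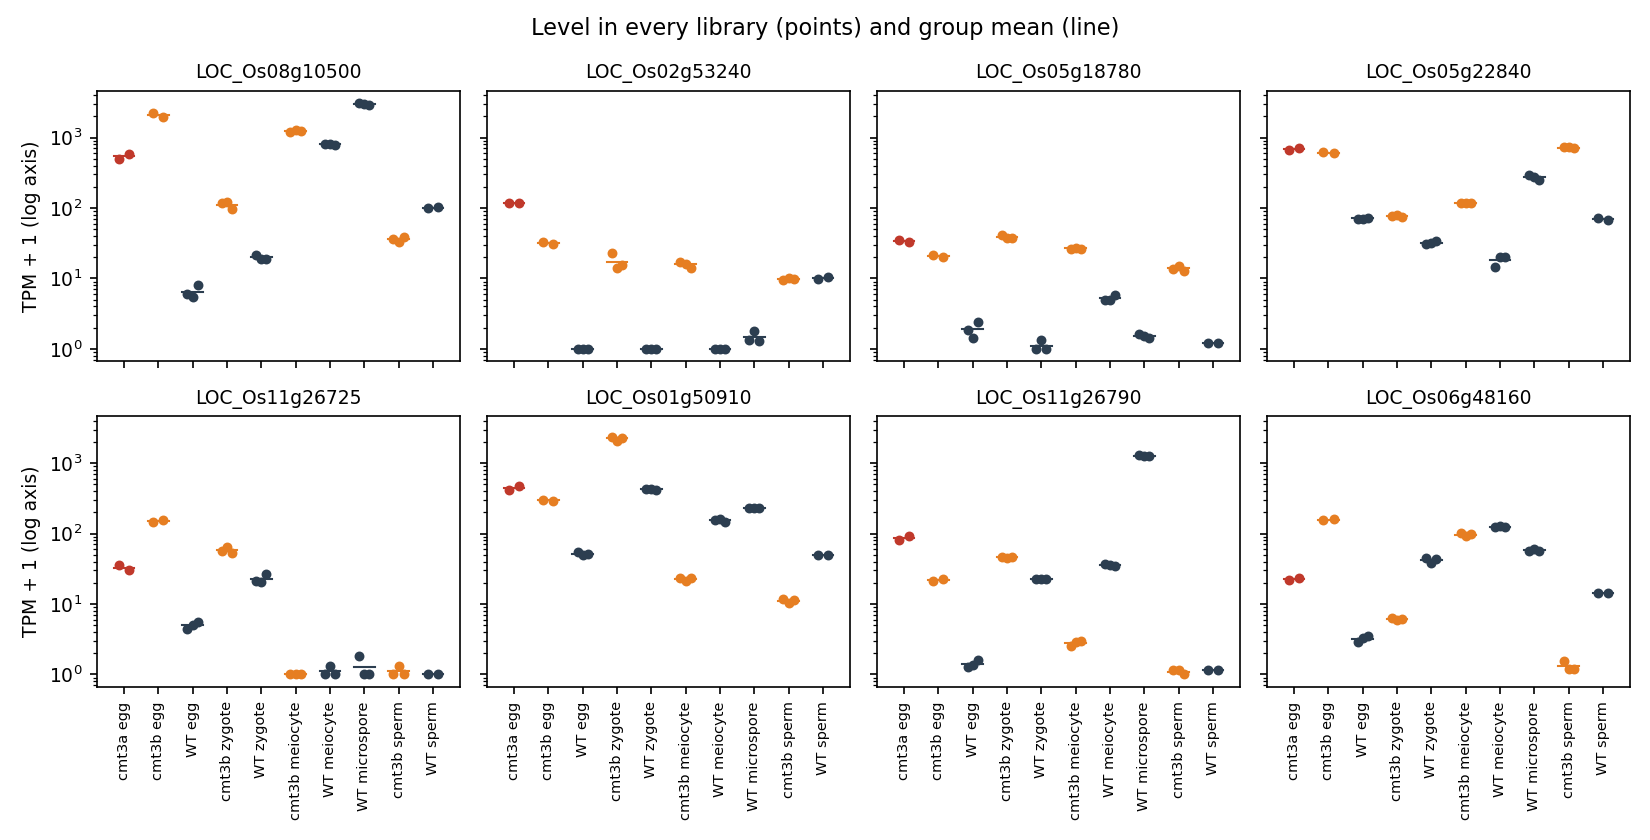
TPM + 1 (log axis) in every library for 8 of the genes, with a point per library and a line at the group mean, for *cmt3a* (red), *cmt3b* (orange) and WT (dark). LOC_Os02g53240 is at 0 TPM in the WT egg, zygote and meiocyte libraries and at 13 to 118 TPM in the mutant ones, and LOC_Os11g26725 is near 0 in all male groups. LOC_Os06g48160 is above WT in *cmt3b* egg, by the choice of the genes, but below WT in *cmt3b* zygote.

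Over WT male development, more of the genes were higher than lower in microspore relative to meiocyte. Of 120 genes that passed the filter, 51 were higher in WT microspore than in WT meiocyte (42.5%) and 24 were lower (20%), against 29.7% and 32.3% of all genes tested. Their median log2 fold change was 0.71, against -0.05 for all genes tested. Without the filter 48 of 143 were higher (33.6%) and 32 lower (22.4%), against 24.5% and 17.9% of 51674 features, and the median was 0.57 for the genes and 1.24 for all features, so that the order of the medians depended on the filter. Every WT microspore library lay above every WT meiocyte library for 76 of the 143 (53.1%), against 38.6% of these features, and below for 41 (28.7%), against 24.3%. The 5 tapetum loci summed to 2814 to 2983 TPM in WT microspore, against 942 to 979 TPM in WT meiocyte, and their part in these values was not tested. WT microspore libraries had a count on 42291 to 42885 features, against 30818 to 31737 in WT meiocyte, and the part of this difference was not tested. Whether the libraries of these cells were prepared together is not given in the sources used here. A difference in preparation cannot be told apart from one of cell type. The WT meiocyte libraries also serve in the *cmt3b* meiocyte comparison.

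LOC_Os06g39370 had 185, 195 and 197 TPM in WT microspore, against 0.861 to 1.07 TPM in WT meiocyte (log2 fold change 7.69 ± 0.08 SE, edgeR adjusted p = 3.06e-44). LOC_Os05g02760, an expressed protein on a list of sexual-lineage-specific methylated genes, had 960, 843 and 816 TPM in WT microspore, against 14.2 to 16.2 TPM in WT meiocyte (log2 fold change 5.96 ± 0.06 SE). LOC_Os05g28210 had 71 to 79.2 TPM in WT microspore, against 0.614 to 1.07 TPM in WT meiocyte (log2 fold change 6.49 ± 0.14 SE). LOC_Os11g26790 had 1246 to 1310 TPM in WT microspore, against 33.5 to 36.3 TPM in WT meiocyte (log2 fold change 5.3 ± 0.05 SE), and its neighbour LOC_Os11g26780 had 415 to 423 TPM in WT microspore, against 17.8 to 20.4 TPM in WT meiocyte. The largest falls were those of LOC_Os09g38104, with 0 to 0.478 TPM in WT microspore, against 17.8 to 26.1 TPM in WT meiocyte, and of LOC_Os03g44642, LOC_Os03g55770 and LOC_Os08g34500. LOC_Os09g38104 and LOC_Os03g44642 had at most 3 counts in every WT microspore library. They passed the filter through meiocyte alone and had to differ.

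The genes were short. Their median length was 979 bp, against 1710 bp for the 12730 genes and 1421 bp for all features with a length. Chromosome 5 held 23 of them (15.9%), against 8.6% of the 12730 genes, and chromosome 9 held 15 (10.3%), against 5.36%. Within 3 listed places of each other lay 13 pairs, made of 20 genes, a count with no comparison set. LOC_Os09g35010, LOC_Os09g35020 and LOC_Os09g35030 stood side by side, as did LOC_Os06g04220, LOC_Os06g04230 and LOC_Os06g04240. LOC_Os03g60560 and LOC_Os03g60570 were neighbours with different levels in *cmt3b* egg, at 60 and 70.1 TPM and at 877 and 898 TPM. Reads from overlapping genes may be assigned to either gene, and whether the counting used strand is not given in the sources used here.

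The gene lists of the study held 8 of the 145. The set shared 4 genes (2.76% of the 145) with 148 genes listed for *CMT3b* in meiocyte and 2 (1.38%) with 122 listed for sperm. It shared 1 (0.69%) with 83 zygotic genes listed for *cmt3b* egg, 1 (0.69%) with 132 sexual-lineage methylated genes, and 0 with a cluster of 315 genes. Each list is itself a small part of the 55986 features, and whether the overlaps differ from that part was not tested. The lists for *CMT3b* in meiocyte and sperm and for *cmt3b* egg drew on these RNA-seq libraries and are not independent of the values given here. The sexual-lineage list and the cluster of 315 genes came from the bisulfite data of the study, which were left out here. For the other 137 genes the files and tables used here pair no name or function with the locus.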

How the data were processed

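Only the RNA-seq libraries of isolated rice cells were used, and bisulfite data were left out. The authors cleaned reads with fastp 0.20.1, aligned them to MSU7.0 with hisat2 and deposited featureCounts counts per gene, from which they derived FPKM and TPM. The deposited TPM were recomputed from the counts (largest relative difference 1.38e-14), and FPKM served only to recover gene lengths. Labels and methods name different amplification kits. Groups came from the labels. Whether replicates are separate plants is not given, so p-values cover the spread between libraries.

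Counts were fitted in R 4.3.3 with edgeR 4.0.16 (TMM, filterByExpr at a minimum count of 10, quasi-likelihood test), each comparison on its own, and DESeq2 1.42.0 was an alternative. Tables and plots were made with Python. On simulated data with 200 genes changed, 175 to 197 were recovered over the 4 tested comparisons and 0 to 2 unchanged genes were called. Sperm ratios are log2 CPM with a prior count of 2. Genes enriched in a WT cell had 10 TPM or more there and over 10 times the level of each other WT cell. Floors of 3 counts cover counting error only. The reference table of gene names matched 0 of the locus identifiers.

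The 145 genes and all lists were chosen with earlier results of these data known. Named genes are the 12 with the largest ratio, the 5 highest in each egg group, the 4 largest rises and 4 largest falls among calls without overlap, the 4 extremes of *cmt3a* over *cmt3b* egg, those annotated by the study, and the 2 on each side of the limit. Others are marked in the text.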

Additional observations from a re-analysis of the deposited data

Results flagged for a closer look

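The *cmt3b* effect differed between zygote and meiocyte, by edgeR's interaction test, in one direction for 59 genes (higher in zygote) and in the other for 31 (higher in meiocyte). The 59 include genes with at most 3 counts in every WT zygote library, and genes with at most 3 counts in every meiocyte library of both genotypes. Values below are log2 differences, the effect in zygote minus that in meiocyte.

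Of the genes that were higher in *cmt3b* zygote and lower in *cmt3b* meiocyte, LOC_Os11g26790 differed by 5.09, LOC_Os09g22160 by 5.01, LOC_Os01g50910 by 4.98 and LOC_Os05g39250 by 4.95. LOC_Os03g51350 differed by 4.38, LOC_Os06g03670 by 3.99, LOC_Os03g19270 by 3.74, LOC_Os11g26780 by 3.65 and LOC_Os03g04080 by 3.22. LOC_Os05g45130 differed by 7.27, with at most 3 counts in each WT zygote library.

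Of the genes that were lower in *cmt3b* zygote and higher in *cmt3b* meiocyte, LOC_Os09g35010 differed by -3.45, LOC_Os01g64570 by -3.12, LOC_Os09g36500 by -2.61, LOC_Os02g04130 by -2.57 and LOC_Os02g50130 by -2.41. LOC_Os06g48160, which is not one of these genes, differed by -2.88. It was lower in *cmt3b* zygote, and its difference in meiocyte alone did not pass the fold limit, so it was not called higher there.

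The highest fitted differences were those of LOC_Os07g05840 (9.45), LOC_Os08g10304 (7.62), LOC_Os09g38104 (7.47) and LOC_Os06g21369 (7.34). All 4 were at 0 in WT zygote, so that their size depends on the prior count of the fit and is no bound.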

How the results depend on the processing

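Every count of genes higher or lower stayed within 1.5 times its value under each alternative run. Without a single library, 67 to 72 genes were higher and 11 to 14 lower in *cmt3b* zygote, 32 to 36 and 15 to 17 in *cmt3b* meiocyte, 49 to 51 and 25 to 29 in WT microspore, and 55 to 60 and 29 to 32 for the difference between the zygote and meiocyte effects. In *cmt3b* sperm 42 were higher each time and 53 to 54 lower. With *cmt3b* zygote 1 alone, chosen after seeing the data, 65 were higher and 13 lower. The DESeq2 Wald test gave 65 and 11 in zygote, and 34 and 15 in meiocyte. Replicate numbers did not pair the libraries, since the correlations of same-numbered libraries were between -0.0714 and 0.0214. A fit with the replicate number as a block gave 67 and 13 in zygote, 34 and 15 in meiocyte, 51 and 24 in microspore and 58 and 31 for the difference. DESeq2's size factors put the median log2 ratio of all genes in sperm at -0.18, against 0.05 with TMM, and that of the 145 at -0.61, against -0.38. The choice of the genes depended most on the constant added to TPM: with 5 in place of 1, 115 of the 145 were chosen again, and with 0.1 it was 132. With a minimum of 10 TPM it was 122, and without a single egg library 140 to 144. Of 2894 alternative values for named genes, 14 lost and 15 gained a call, and 0 called values changed sign. Depth limits the lowest genes: a gene at 3 counts or fewer has a bound and no fold.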
